A study of Hordeum vulgare with 18 samples.

Results

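A set of 60 barley genes whose flag leaf transcript level was highest at 14 d, above both 7 d and 21 d, in each of 2 lines was described here across all 18 libraries. The genes were chosen by their values in these same libraries. Of 13626 genes in the deposited table, 7152 had a mean of 20 or more normalized counts in at least 1 of the 6 groups of line and day. For each of these the mean of every group, with 5 added, was taken to the log2 scale, and 14 d was set against 7 d and against 21 d in each line. The score of a gene was the smallest of these 4 differences, and the 60 genes with the highest scores are the members. A normalized count is the deposited count of a gene divided by the authors' size factor of the library.

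Flag leaves of barley (Hordeum vulgare) were taken at 7, 14 and 21 days post anthesis (7 d, 14 d and 21 d) from the cultivar Karl and from 10_11, a line derived from crosses to Karl and known to carry the high-protein allele of a grain protein locus on chromosome 6H. Plants of both lines were grown in pots in a glasshouse and were fed with fertilizer and nitrate up to anthesis. Each library was made from a pool of 10 or more flag leaves, and each of the 6 groups held 3 libraries made by MARS-seq, which counts tags from the 3' ends of transcripts. The labels call the pools independent and do not say which pots they came from, so p-values measure the spread between these pools.

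The flag leaf is the uppermost leaf of a cereal shoot and a main source of carbon and nitrogen for the filling grain. As it senesces, chloroplasts are taken apart, chlorophyll and proteins are broken down, and amino acids are moved to the grain. Cereal NAC transcription factors of the NAM type, known from wheat and barley, advance this programme. A transcript that is highest in the middle of grain filling follows neither of the simple courses of senescence, a steady gain or a steady loss. The deposited table gives genes by identifier alone, and 0 of its identifiers matched the reference gene table, so no member has a name or a role here and markers of the leaf could not be looked up. The first digit of an identifier is its chromosome (0 means unplaced) and the digits after the letter G give its order along the chromosome.

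The library labelled 10_11 14 d replicate C did not match its line, and it was left out both of the choice of members and of the tests. Among 54 genes that separated the lines without overlap and by 2-fold or more at both 7 d and 21 d, with 0 members among them, this library had a median position of 0.0751 where the mean of Karl is 0 and that of 10_11 is 1. Its fellow libraries, 10_11 14 d replicates A and B, lay at 0.991 and 0.995, and the Karl libraries of 14 d at -0.0179 to -0.000510. The group 10_11 at 14 d therefore has 2 libraries in what follows unless the left-out library is named. Total counts were 353982 to 947762 in the libraries of 7 d and 1058777 to 3231258 in the later ones. The style of numbering and the well-like codes in the labels differ in the same way. A difference between 14 d and 7 d thus crosses a difference in depth and in labelling. The difference between 14 d and 21 d does not cross the one in labelling, but in 10_11 it crosses one in depth. There the 14 d libraries used had totals of 3231258 and 1864058, against 1058777 to 1384895 at 21 d. In Karl the totals overlapped, with 1381441 to 2088696 at 14 d and 1351123 to 2616825 at 21 d. The median member had 5 to 12 counts in a library of 7 d, 54 to 105.5 at 14 d and 17 to 49 at 21 d, so the low side of the peak rests on few counts at 7 d. The part of depth in the results was not tested beyond counts thinned to a common total, which are given with the other alternatives.

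The members' peak was moderate in size. The values that chose the members had a median of 1.61-fold for 14 d over 7 d in Karl (range 1.23 to 30.0) and 1.58-fold in 10_11 (1.23 to 15.8). For 14 d over 21 d the median was 1.57-fold in Karl (1.23 to 26.6) and 1.58-fold in 10_11 (1.24 to 6.67). All folds of group means here are on the scale with 5 added to each mean, which understates the change of genes with low counts. Over all 7152 genes the medians of the same ratios were 0.986, 0.996, 0.988 and 0.946. A ratio of 2 or more was reached by 18 members for 14 d over 7 d in Karl, by 19 in 10_11, by 13 for 14 d over 21 d in Karl and by 16 in 10_11. Only HORVU0Hr1G034800 reached it in all 4 ratios, and 12 members reached 1.5-fold in all 4. These leaves were measured in bulk, so fewer cells of a type and less RNA per cell cannot be told apart.

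**Figure D1:**
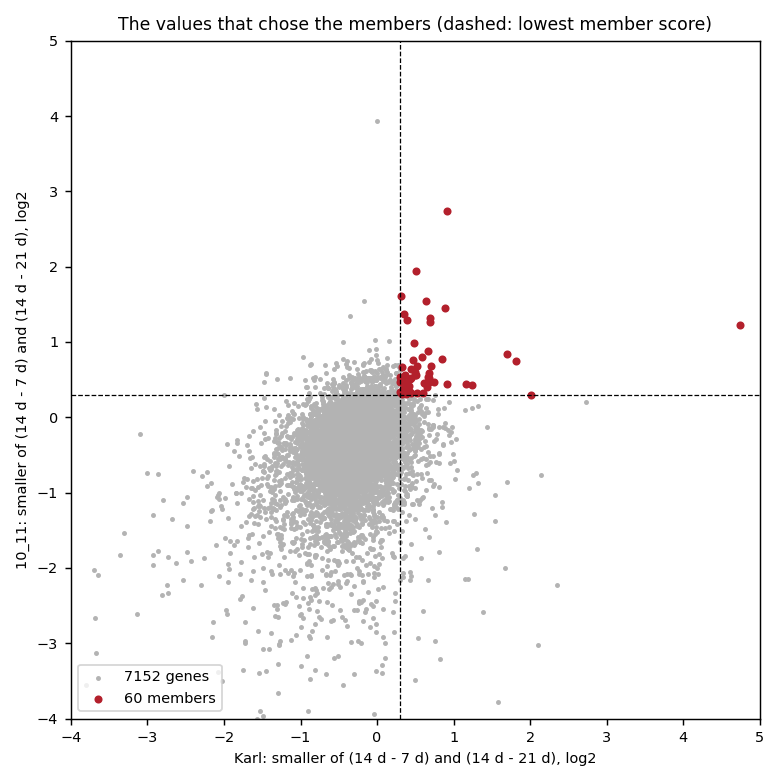
Each point is a gene, placed by the smaller of its 2 log2 differences (14 d minus 7 d, 14 d minus 21 d; group means with 5 added) in Karl (x axis) and in 10_11 (y axis), with the 60 members in red and the 7152 genes of the choice in grey; 18 genes and 0 members lie outside the axes. The dashed lines mark the lowest member score, 0.30, and the members fill the corner above both lines, most of them close to it.

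The score fell off without a gap at the end of the list. It ran from 1.22, or 2.33-fold, to 0.30, or 1.23-fold, with a median of 0.44. The last members inside were HORVU6Hr1G000490, with a score of 0.299, and HORVU0Hr1G021850, with 0.297. The next genes outside were HORVU4Hr1G021270 and HORVU6Hr1G044590, with 0.295 each. HORVU6Hr1G000490 had 15.1, 2.25 and 5.65 normalized counts at 7 d in Karl, 18.1, 15.5 and 19.1 at 14 d, and 10.1, 14.7 and 15.2 at 21 d. Its libraries of 14 d were the highest of the line by a small margin. HORVU6Hr1G044590, just outside, had 21.8, 18.0 and 11.3 at 7 d in Karl, 32.9, 34.3 and 31.8 at 14 d, and 23.4, 26.7 and 20.8 at 21 d, so that its 14 d libraries stood clear of the others.

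Each line alone gave a longer list. At the lowest member score, 418 genes peaked at 14 d in Karl, 5.84% of the 7152, and 349 in 10_11, or 4.88%. The 60 shared genes are the members by construction, 14.4% of the Karl list and 17.2% of the 10_11 list. The opposite course, a level lower at 14 d than at both other days in both lines, passed the same limit in 53 genes, with a highest score of 0.92. Above a score of 0 there were 453 genes with a peak and 642 with a trough.

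**Figure D2:**
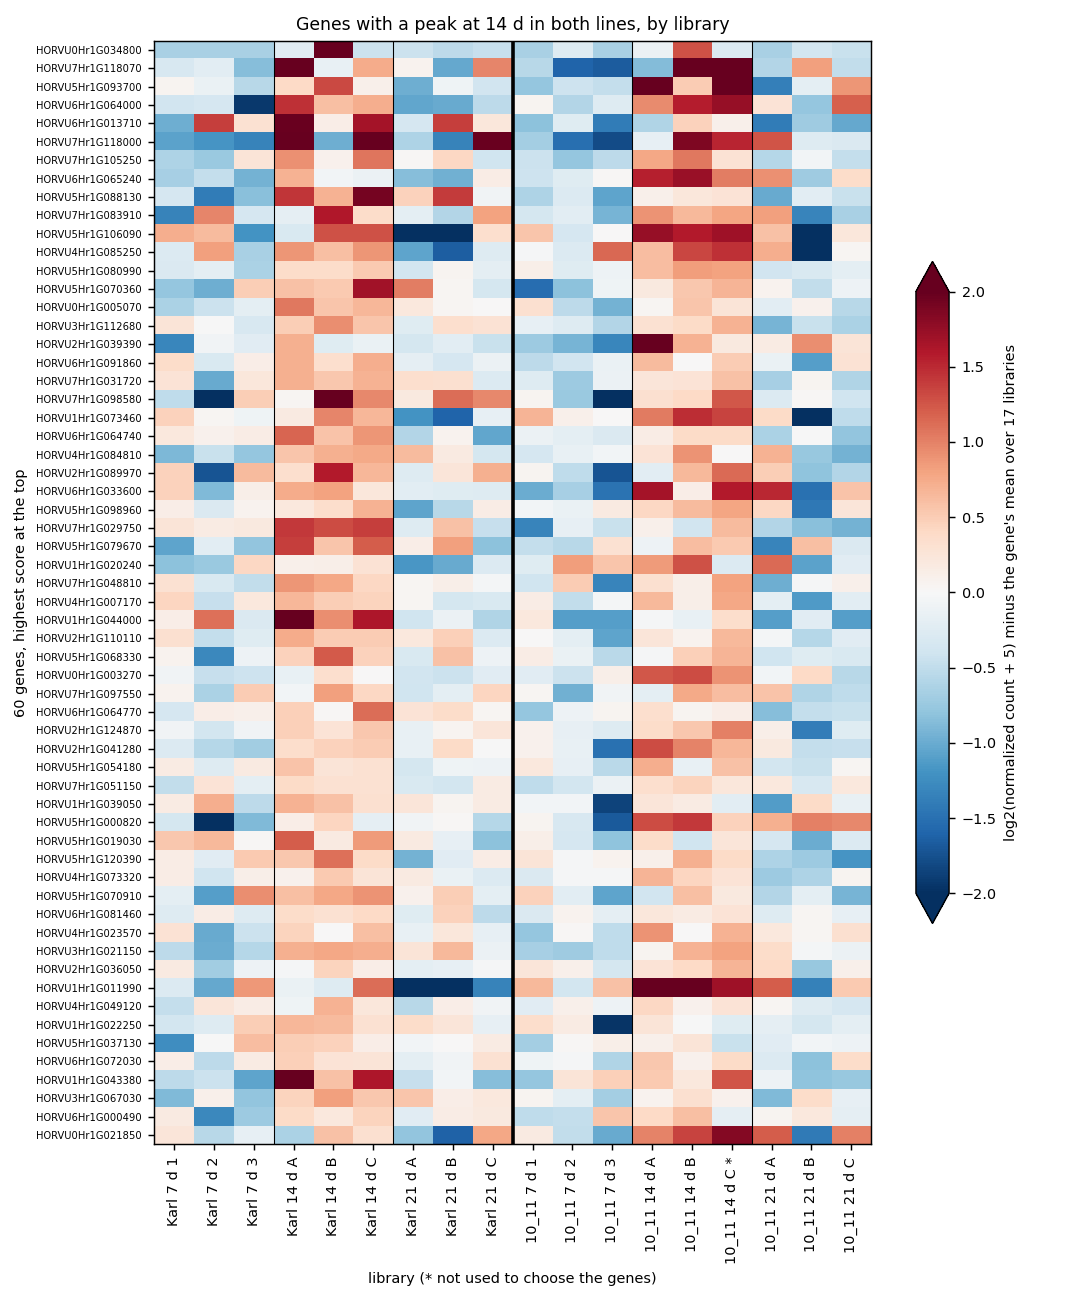
Rows are the 60 members in order of score and columns the 18 libraries by line and day; colour gives log2(normalized count + 5) minus the gene's mean over the 17 libraries used, cut at 2 on either side. The columns of 14 d are red for most genes in both lines, and the library marked with a star, which did not choose the members, is red in most rows as well.

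Separate libraries showed the peak less evenly than the means. Every Karl library of 14 d exceeded every Karl library of 7 d and of 21 d in 19 members, against 1.9% of the 7152 genes. The same held in 10_11, with its 2 libraries of 14 d, for 21 members, against 2.4%. In both lines at once it held for 8 members, against 0.168% or 12 genes of all. These differences chose the members, so nothing is read from the shares. In the edgeR quasi-likelihood fit of 17 libraries, which tested 10382 genes and all 60 members, a gene is called at a Benjamini-Hochberg adjusted p under 0.05. For the contrasts that the choice used, 14 members were called higher at 14 d than at 7 d in Karl (5.76% of all genes tested) and 3 in 10_11 (0.337%). Lower at 21 d than at 14 d were 6 members in Karl (0.578%) and 14 in 10_11 (7.95%).

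The 8 members with no overlap in either line, singled out after their values were seen, were HORVU0Hr1G034800, HORVU5Hr1G080990, HORVU3Hr1G112680, HORVU7Hr1G031720, HORVU6Hr1G064740, HORVU2Hr1G110110, HORVU2Hr1G124870 and HORVU7Hr1G051150. HORVU5Hr1G080990, on chromosome 5H, had 25.2, 27.0 and 18.8 normalized counts at 7 d in Karl, 42.5, 42.5 and 47.8 at 14 d, and 23.4, 33.3 and 27.0 at 21 d. In 10_11 it had 34.7, 26.2 and 29.4 at 7 d, 51.6 and 60.7 at 14 d, and 23.3, 24.8 and 27.1 at 21 d. Its mean was 44.3 ± 3.03 (SD, n = 3) at 14 d in Karl and its replicates of every group lay close together. HORVU7Hr1G051150, on chromosome 7H, had 60.5, 106 and 75.4 at 7 d in Karl, 114, 109 and 108 at 14 d, and 69.5, 66.2 and 97.5 at 21 d. In 10_11 it had 59.6, 66.4 and 79.9 at 7 d, 111 and 120 at 14 d, and 101, 68.1 and 102 at 21 d. Its libraries of 14 d lay close together in both lines, and the nearest libraries of the other days, 106 in Karl and 102 in 10_11, came just below them.

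HORVU3Hr1G112680 had 42.0, 33.8 and 26.4 at 7 d in Karl, 49.9, 69.6 and 52.5 at 14 d, and 28.1, 44.4 and 42.9 at 21 d. In 10_11 it had 29.8, 27.8 and 21.0 at 7 d, 43.5 and 46.2 at 14 d, and 15.5, 23.7 and 20.3 at 21 d. Both lines had their highest libraries at 14 d, and 10_11 had a mean of 19.9 ± 4.12 (SD, n = 3) at 21 d, with 26.2 ± 4.59 at 7 d. HORVU2Hr1G110110 had 161, 90.2 and 107 at 7 d in Karl, 217, 184 and 184 at 14 d, and 149, 180 and 104 at 21 d. In 10_11 it had 129, 111 and 58.9 at 7 d, 152 and 135 at 14 d, and 124, 84.6 and 109 at 21 d. The nearest libraries of the other days, 180 in Karl and 129 in 10_11, were close to those of 14 d. The 3 other members of the 8, leaving HORVU0Hr1G034800 aside, had group means of 21.1 to 35.2 at 14 d.

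The members with the highest scores owed them in part to single libraries. HORVU0Hr1G034800, which has the highest score, had 0 counts in every Karl library of 7 d, 1.70, 433 and 0.796 normalized counts at 14 d, and 0.781, 0.444 and 0.692 at 21 d. In 10_11 it had 0, 1.54 and 0 at 7 d, 2.20 and 13.9 at 14 d, and 0, 1.03 and 0.753 at 21 d. In Karl the library 14 d replicate B held 99.4% of the summed level of 14 d, and in 10_11 replicate B held 86.3%, so although the groups do not overlap the peak stands on 1 library of each line. Against a floor of 3 counts over the Karl libraries of 7 d, its 14 d level was at least 85.4-fold higher. Over 21 d in Karl the ratio was 271 (95% exact binomial interval 92.3 to 1315; 788 against 3 counts), and in 10_11 it was 8.19 over 7 d (1.35 to 335; 27 against 1) and 10.2 over 21 d (2.55 to 88.2; 27 against 2). These intervals cover counting error only and not the difference between libraries. Without Karl 14 d replicate B the score was 0.15 and the gene was no longer among the 60.

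HORVU7Hr1G118070 had 18.5, 20.3 and 11.3 at 7 d in Karl, 112, 21.5 and 43.8 at 14 d, and 25.8, 9.33 and 52.6 at 21 d. The values of 10_11 were 14.9, 4.63 and 4.20 at 7 d, 11.0 and 387 at 14 d, and 14.4, 46.4 and 15.8 at 21 d. Both lines overlapped between days, and 10_11 14 d replicate B held 97.2% of the summed level of its group. Without that library the score was -0.94. HORVU7Hr1G118000, whose identifier lies 70 serial numbers away on 7H, had 10.1, 9.02 and 7.54 at 7 d in Karl, 202, 11.1 and 328 at 14 d, and 15.6, 7.56 and 120 at 21 d. The values of 10_11 were 14.9, 6.17 and 4.20 at 7 d, 23.4 and 110 at 14 d, and 71.0, 21.7 and 21.1 at 21 d. The high libraries of these neighbours matched in 10_11 at 14 d. In Karl replicate B was the lowest for both genes at 14 d and at 21 d, and replicate C was the highest for both at 21 d. The highest Karl library of 14 d differed, with replicate C for HORVU7Hr1G118000 and replicate A for HORVU7Hr1G118070. Without 10_11 14 d replicate B the score of HORVU7Hr1G118000 was -0.60. The other pair with close identifiers was HORVU6Hr1G064740 and HORVU6Hr1G064770, 30 serial numbers apart on 6H. HORVU6Hr1G064740 had means of 19.0 ± 1.07, 35.2 ± 8.28 and 10.9 ± 6.26 (SD, n = 3) at 7 d, 14 d and 21 d in Karl, and HORVU6Hr1G064770 had 11.7 ± 2.87, 20.9 ± 10.0 and 15 ± 2.28. The files do not say whether the genes of either pair are alike in sequence, and reads of near-identical copies can be split between them.

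HORVU5Hr1G093700 had 8.40, 6.76 and 3.77 at 7 d in Karl, 11.9, 27.1 and 8.76 at 14 d, and 1.56, 7.11 and 4.84 at 21 d. The values of 10_11 were 2.48, 4.63 and 4.20 at 7 d, 49.8 and 13.2 at 14 d, and 0, 6.19 and 18.8 at 21 d. Karl did not overlap between 14 d and the other days and 10_11 did, through 1 library of 21 d. HORVU6Hr1G013710 had 1.68, 29.3 and 11.3 at 7 d in Karl, 47.0, 9.39 and 36.6 at 14 d, and 5.46, 29.3 and 10.4 at 21 d. The values of 10_11 were 2.48, 6.17 and 0 at 7 d, 3.66 and 13.2 at 14 d, and 0, 3.10 and 1.51 at 21 d. Its level was low in 10_11 at all days and its Karl libraries overlapped widely.

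HORVU6Hr1G064000 was the member of the highest scores whose peak was spread over libraries. It had 15.1, 15.8 and 1.88 at 7 d in Karl, 67.4, 34.8 and 38.2 at 14 d, and 7.81, 8 and 13.1 at 21 d. The values of 10_11 were 22.3, 12.3 and 16.8 at 7 d, 45.4 and 72.6 at 14 d, and 26.6, 10.3 and 54.9 at 21 d. Karl did not overlap between 14 d and either other day, while in 10_11 replicate C of 21 d exceeded replicate A of 14 d. The ratio of means was 3.25 over 7 d and 3.54 over 21 d in Karl, and 2.89 and 1.80 in 10_11. HORVU7Hr1G105250, named after its values were seen, had 47.0, 42.8 and 90.5 at 7 d in Karl, 146, 80.1 and 162 at 14 d, and 76.5, 102 and 56.0 at 21 d. Line 10_11 had 54.6, 41.7 and 50.5 at 7 d, 132 and 160 at 14 d, and 48.8, 72.2 and 52.7 at 21 d. The 10_11 libraries of 14 d stood clear of all others of the line, and Karl replicate B of 14 d lay within the range of the other days.

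The members HORVU2Hr1G089970, HORVU5Hr1G120390 and HORVU3Hr1G021150 carried the most tags at 14 d. HORVU2Hr1G089970 had 1011, 219 and 1142 normalized counts at 7 d in Karl, 922, 2209 and 1163 at 14 d, and 613, 869.8 and 1198 at 21 d. Line 10_11 had 759, 511.0 and 219 at 7 d, 629.6 and 1153 at 14 d, and 1028, 418 and 485 at 21 d. Its groups overlapped in both lines. HORVU5Hr1G120390 had 808, 624 and 1048 at 7 d in Karl, 1062, 1564 and 951 at 14 d, and 376, 622 and 805 at 21 d. Line 10_11 had 871, 716 and 765 at 7 d, 779.6 and 1192 at 14 d, and 474, 438 and 318 at 21 d. All libraries of 21 d lay below those of 14 d in both lines, while 7 d overlapped 14 d. HORVU3Hr1G021150 had 107, 76.6 and 104 at 7 d in Karl, 261, 271 and 262 at 14 d, and 188, 248 and 145 at 21 d. Line 10_11 had 96.8, 94.2 and 109 at 7 d, 162 and 257 at 14 d, and 204, 153 and 144 at 21 d. Its low day was 7 d in both lines, and the mean of 14 d was 265 ± 5.64 (SD, n = 3) in Karl. Together the 60 members took 0.188% to 0.271% of all counts in the libraries of 7 d, 0.437% to 0.676% at 14 d and 0.210% to 0.404% at 21 d.

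**Figure D3:**
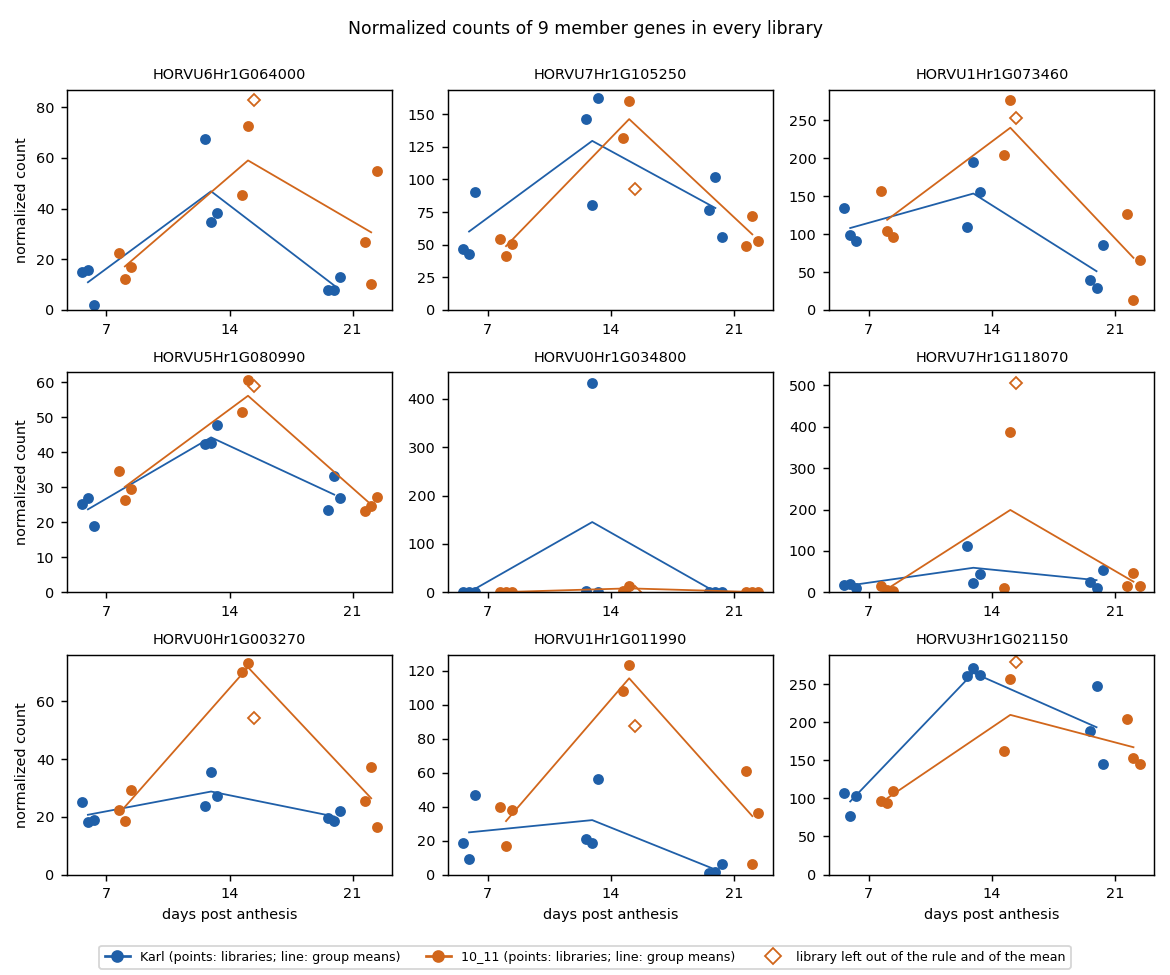
Normalized counts (y axes, each from 0) of 9 members in every library at 7, 14 and 21 days post anthesis (x axes), Karl in blue and 10_11 in orange, with lines through the group means and an open diamond for the library left out. HORVU5Hr1G080990 has tight groups and a clear peak, whereas HORVU0Hr1G034800 and HORVU7Hr1G118070 have 1 library far above the others of its group.

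Spread within the groups of 14 d was wide for a part of the members. In Karl at 14 d the highest library was at least 2 times another in 17 members, 28.3%, against 8.59% of the 7152 genes, and in 10_11 it was in 7, or 11.7%, against 1.87%. A choice of high means favours genes with 1 high library, so these shares describe the list. The library 10_11 21 d replicate B was at most 0.5 times each other library of its group in 10 members, 16.7% against 4.01% of all. Among them, HORVU5Hr1G106090 had 109, 4.13 and 84.3 at 21 d in 10_11 and HORVU4Hr1G085250 had 183, 10.3 and 111, both named after their values were seen. In these genes the mean of 21 d was lowered by 1 library.

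The library labelled 10_11 14 d replicate C did not choose the members, although the libraries of 7 d and 21 d against which it is set here did. Its line label failed the check above and its label of 14 d was not tested. It exceeded all 12 libraries of 7 d and 21 d in 35 of the 60 members, against 3.82% of the 7152 genes. It exceeded all of them by at least 1.5 times in 9 members and in 25 genes of all. Set against the means of the 4 groups of 7 d and 21 d, it was above every one in 46 members, 76.7%, against 13.2% of all genes. The smallest of these 4 log2 differences had a median of 0.43 over the members and -0.46 over all genes. By group, the members' median difference was 0.88 from 10_11 at 7 d, 0.83 from 10_11 at 21 d, 0.72 from Karl at 7 d and 0.59 from Karl at 21 d. The choice asked for low means at 7 d and 21 d, which lowers the level that this library is set against. Nothing is therefore read from the distance between the members' shares and those of all genes. This is 1 library, so the values carry no test.

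Single members showed both outcomes. In this library HORVU6Hr1G064000 had 82.7 normalized counts, above every library of 7 d and 21 d, where the highest was 54.9. HORVU1Hr1G073460 had 253, against at most 156. HORVU5Hr1G093700 had 148 and HORVU7Hr1G118070 had 506, both far above the other days. HORVU0Hr1G034800, in contrast, had 1.45, and HORVU6Hr1G013710 had 9.19, each under the highest library of the other days. HORVU2Hr1G039390 had 9.19 where 10_11 14 d replicate A had 109. For HORVU0Hr1G034800, the member with the highest score, the level in this library was too low to tell whether it had a peak. Of the 60 members, 25 did not exceed all 12 libraries.

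**Figure D4:**
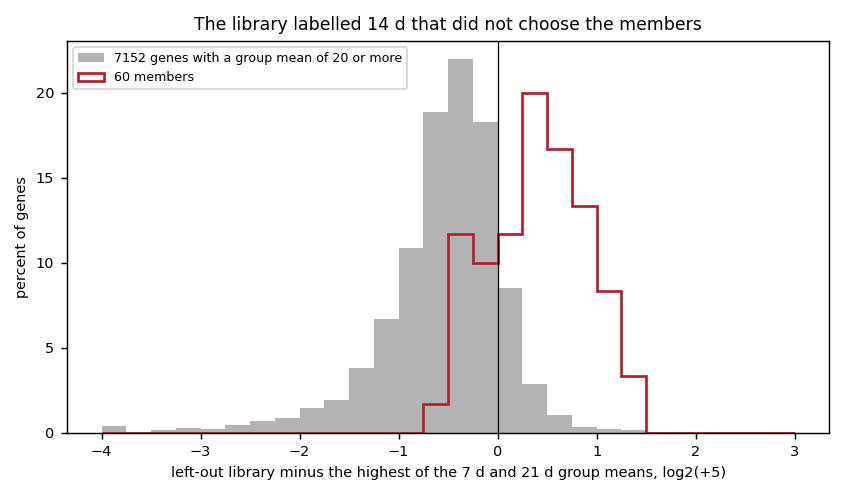
Percent of genes (y axis) by the log2 difference between the left-out library, labelled 14 d, and the highest of the 4 group means of 7 d and 21 d (x axis; 5 added to each value), for the 60 members (red line) and the 7152 genes (grey bars, values below -4 or above 3 placed in the end bars). The members centre at 0.43 and all genes at -0.46.

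The question of whether the lines differed in these genes was not part of the choice, which used differences between days within a line. At 7 d, 0 of the 60 members were called between 10_11 and Karl in the edgeR quasi-likelihood test, against 0.414% of all genes tested in either direction, and 0 had an unadjusted p under 0.05. DESeq2 also called 0 members, against 0.482% of all genes. At 14 d, 2 members were higher in 10_11 (0.973% of all genes) and 2 were lower (2.02%). Of these, HORVU2Hr1G039390 met the minimum group mean in 10_11 alone, and HORVU7Hr1G029750 and HORVU1Hr1G044000 met it in Karl alone. Their calls at 14 d are therefore a description. At 21 d, 1 was higher (0.925%) and 0 were lower (0.491%). The lines' means lay within 1.5 times of each other in 50 members at 7 d, 35 at 14 d and 43 at 21 d, which is 83.3%, 58.3% and 71.7%. Of the 7152 genes it was 90.4%, 79.3% and 83.3%. The choice favours genes with 1 high library at 14 d and with low levels at 7 d and 21 d. Both can act on ratios between the lines, which was not tested, so nothing is read from these shares.

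The members called higher in 10_11 at 14 d were HORVU0Hr1G003270 and HORVU2Hr1G039390. HORVU0Hr1G003270 had 70.2 and 73.3 normalized counts in 10_11 at 14 d and 23.8, 35.4 and 27.1 in Karl. The groups did not overlap, with the 10_11 level above any library of 7 d or 21 d in either line, where the highest was 37.2. Its log2 difference at 14 d was 1.32 (SE 0.27, adjusted p = 0.0134, edgeR). It was no longer called without Karl 14 d replicate A (adjusted p = 0.0819), Karl 14 d replicate C (0.0609), 10_11 14 d replicate A (0.109) or 10_11 14 d replicate B (0.125), and the log2 difference then was 1.20 to 1.37. The left-out library had 54.2. HORVU2Hr1G039390 had 109 and 15.2 in 10_11 at 14 d and 15.3, 5.53 and 6.37 in Karl, so the groups overlapped by a narrow margin. Its log2 difference was 2.78 (SE 0.60, adjusted p = 0.0178, edgeR), and without 10_11 14 d replicate A it was 0.74 with an adjusted p of 0.705. Without Karl 14 d replicate C its adjusted p was 0.0855.

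Lower in 10_11 at 14 d were HORVU7Hr1G029750 and HORVU1Hr1G044000. HORVU7Hr1G029750 had 8.41 and 4.62 in 10_11 and 28.3, 26.0 and 27.9 in Karl, whose libraries did not overlap with those of 10_11. Its log2 difference was -1.99 (SE 0.45, adjusted p = 0.0237, edgeR). The adjusted p was 0.0857 without Karl 14 d replicate A, 0.0723 without Karl 14 d replicate C, 0.134 without 10_11 14 d replicate A and 0.301 without 10_11 14 d replicate B. HORVU1Hr1G044000 had 5.49 and 4.62 in 10_11 and 44.8, 15.5 and 27.9 in Karl, again without overlap. Its log2 difference was -2.49 (SE 0.66, adjusted p = 0.0479, edgeR), and leaving out any of 10 of the 17 libraries ended the call. The adjusted p was then 0.0509 to 0.0657 for Karl 7 d replicates 1 and 3, Karl 21 d replicate A and every 10_11 library of 7 d, 0.245 and 0.117 for Karl 14 d replicates A and C, and 0.285 and 0.336 for 10_11 14 d replicates A and B. The left-out library had 14.5 for HORVU7Hr1G029750 and 8.70 for HORVU1Hr1G044000, between the lines or near 10_11. Within 10_11, HORVU1Hr1G044000 had 22 counts at 14 d against 3 at 7 d. That is a ratio of 2.22 with a 95% exact binomial interval of 0.668 to 11.6, so its peak over 7 d in 10_11 lies within counting error.

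With all 18 libraries in the fit, 0 members were called at 14 d and 17 had an unadjusted p under 0.05, while the calls over all genes went from 311 to 5. The log2 differences of the 4 genes were then 1.19, 2.30, -1.54 and -2.20 in the order given, with adjusted p of 0.0752, 0.155, 0.123 and 0.116. The number of members called was 1 without Karl 14 d replicate A, 0 without Karl 14 d replicate C and 7 without 10_11 21 d replicate B. Of 10382 genes, 36, 33 and 204 were then higher and 68, 80 and 381 lower, against 101 and 210 with 17 libraries. The count of members thus moved with the count over all genes. Without 10_11 14 d replicate A or B that group has 1 library, so no count is given.

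At 21 d HORVU1Hr1G011990 was the member higher in 10_11. It had 61.0, 6.19 and 36.1 in 10_11 and 0.781, 1.78 and 6.23 in Karl at 21 d, which overlap by a narrow margin. At 14 d it had 108 and 123 in 10_11 and 21.0, 18.8 and 56.5 in Karl. At 7 d it had 39.7, 17 and 37.8 in 10_11 and 18.5, 9.02 and 47.1 in Karl. The lines were alike in range at 7 d, and 10_11 was the higher at 14 d. The log2 difference at 21 d was 3.52 (SE 0.78, adjusted p = 0.0264, edgeR). The adjusted p was 0.0967 without Karl 21 d replicate A, 0.162 without Karl 21 d replicate B, 0.120 without 10_11 21 d replicate A and 0.0551 without 10_11 21 d replicate C. The number of members called was 0 without Karl 21 d replicate B, 10_11 21 d replicate A or 10_11 21 d replicate C. Of 10382 genes, 33, 73 and 120 were then higher and 30, 38 and 32 lower. The number was 2 without Karl 21 d replicate C (59 and 49 of all genes) and 3 without 10_11 21 d replicate B (179 and 192). With 17 libraries 96 genes were higher and 51 lower.

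The size of the peak itself was compared between the lines as the difference between 14 d and the mean of 7 d and 21 d. This measure is built from the same differences whose smallest chose the members, so its values are a description. For it 0 of the 60 members were called, against 0.00963% of all genes (1 gene). DESeq2 called 0 members as well, against 0.79% of all genes (82 genes). At shares this low, a count of 0 among 60 says nothing about the members in either fit. At an unadjusted p under 0.05 there were 3 members. They were HORVU0Hr1G003270, with a larger peak in 10_11 by 1.10 on the log2 scale (SE 0.35, adjusted p = 0.335, edgeR), HORVU2Hr1G039390, larger in 10_11 by 2.78 (SE 1.08, adjusted p = 0.404), and HORVU1Hr1G043380, smaller in 10_11 with -1.63 (SE 0.54, adjusted p = 0.336). HORVU1Hr1G043380 had 146, 45.9 and 98.7 in Karl at 14 d and 43.9 and 34.3 in 10_11, and it was named after its values were seen. A difference in peak size that misses the threshold does not show that the lines had the same peak.

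Whether the members came back to the level of 7 d was read from 21 d against 7 d. The choice asked that both days lie below 14 d, so it did not set the direction of this difference, but it bounded its size and used the same libraries. The means of 21 d and 7 d were within 1.5 times of each other in 42 members in Karl, 70%, against 58.7% of the 7152 genes, and in 48 members in 10_11, 80%, against 49.9%. In Karl 2 members were higher at 21 d (10.2% of all genes tested) and 1 was lower (10.6%). In 10_11 3 were higher (14.7%) and 1 was lower (13.6%). Since the 21 d to 7 d difference is made of the differences that chose the members, nothing is read from these shares.

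HORVU3Hr1G021150, whose values by library stand above, was higher at 21 d than at 7 d in both lines, by 0.99 on the log2 scale in Karl (SE 0.24, adjusted p = 0.00715, edgeR) and by 0.71 in 10_11 (SE 0.25, adjusted p = 0.0403). Libraries of 21 d did not overlap with those of 7 d in either line. The Karl call held without any single library. The 10_11 call was lost without Karl 14 d replicate C (adjusted p = 0.0511), Karl 21 d replicate A (0.0510), 10_11 7 d replicates 1, 2 and 3 (0.106, 0.129 and 0.0590) or 10_11 21 d replicate A (0.143). HORVU5Hr1G088130 had 10.1, 2.25 and 5.65 at 7 d in Karl, 46.5, 26.0 and 66.9 at 14 d, and 21.1, 45.3 and 13.1 at 21 d. It was higher at 21 d than at 7 d by 2.08 (SE 0.59, adjusted p = 0.0186, edgeR) with no overlap. Its adjusted p was 0.0732 without Karl 7 d replicate 2, 0.0650 without Karl 7 d replicate 3 and 0.104 without Karl 21 d replicate B.

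HORVU1Hr1G011990 was lower in Karl at 21 d than at 7 d, by -3.12 on the log2 scale (SE 0.86, adjusted p = 0.0149, edgeR), with no overlap. Its adjusted p was 0.143 without Karl 7 d replicate 3, 0.0533 without Karl 21 d replicate A and 0.0589 without Karl 21 d replicate B. The number of members called in Karl was 1 without Karl 7 d replicate 3 and 5 without Karl 21 d replicate C. Of 10382 genes, 775 and 967 were then higher and 872 and 862 lower, against 1057 and 1101 with 17 libraries.

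In 10_11, HORVU5Hr1G000820 had 109, 83.4 and 29.4 at 7 d, 266 and 288 at 14 d, and 174, 215 and 208 at 21 d. Its level at 21 d was higher than at 7 d by 1.32 (SE 0.36, adjusted p = 0.0110, edgeR), with no overlap, and the call held without any single library. HORVU5Hr1G120390 fell from 7 d to 21 d, with -0.98 on the log2 scale (SE 0.29, adjusted p = 0.0170, edgeR) and no overlap, and its adjusted p was 0.0593 without 10_11 7 d replicate 1 and 0.0727 without 10_11 21 d replicate C. HORVU6Hr1G033600 had 37.2, 47.9 and 25.2 at 7 d, 262 and 87.1 at 14 d, and 235, 24.8 and 120 at 21 d, which overlaps with 7 d. This gene, named after its values were seen, had a log2 difference of 21 d from 7 d of 1.66 (SE 0.61, adjusted p = 0.0479, edgeR). The call held without Karl 7 d replicate 2, 10_11 14 d replicate A, 10_11 14 d replicate B or 10_11 21 d replicate B, and without any of the 13 other libraries the adjusted p was 0.0529 to 0.285, the highest without 10_11 21 d replicate A. The number of members called in 10_11 was 1 without 10_11 7 d replicate 1, where 1160 of 10382 genes were higher and 1122 lower. The number was 2 without 10_11 7 d replicate 2, 10_11 7 d replicate 3, 10_11 21 d replicate C, Karl 14 d replicate C or Karl 21 d replicate A. In those fits 998 to 1443 genes were higher and 1000 to 1349 lower, against 1529 and 1415 with 17 libraries.

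Scaling to library totals alone, an alternative chosen after the data were seen, put the median of all genes for 21 d over 7 d at 0.50 on the log2 scale in both lines, where TMM gave 0.02 in Karl and 0.04 in 10_11. The members' median was then 0.61 in Karl and 0.44 in 10_11, against 0.13 and -0.01 with TMM. With that scaling 13 members were called higher and 1 lower in Karl, where 26% of all genes tested were higher and 5.19% lower. In 10_11 it was 6 higher and 0 lower, against 28.7% and 7.72%.

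The list changed when libraries were left out of the choice. Leaving out each of the 17 libraries in turn kept 42 to 56 of the 60 members, the fewest without 10_11 14 d replicate B and the most without Karl 21 d replicate B. In all 17 of these lists 9 members were kept, HORVU6Hr1G064000, HORVU7Hr1G105250, HORVU6Hr1G065240, HORVU5Hr1G088130, HORVU5Hr1G080990, HORVU3Hr1G112680, HORVU7Hr1G031720, HORVU1Hr1G073460 and HORVU6Hr1G064740. The member kept least often was HORVU0Hr1G021850, the last of the list, in 5. The score fell to 0 or below without some library in 16 members. Counting also 9 other forms of the choice, 3 members were kept in every list, HORVU6Hr1G064000, HORVU7Hr1G105250 and HORVU1Hr1G073460. One of these forms, a minimum group mean of 50, could not keep the 27 members whose highest group mean was under 50. The members named for being kept were singled out after their values were seen.

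HORVU1Hr1G073460 had 134, 99.2 and 90.5 at 7 d in Karl, 109, 195 and 156 at 14 d, and 39.0, 28.4 and 85.8 at 21 d. Line 10_11 had 156, 103 and 96.7 at 7 d, 204 and 277 at 14 d, and 127, 13.4 and 66.2 at 21 d. Its libraries of 14 d lay above those of the other days in 10_11, and in Karl replicate A of 14 d lay within the range of 7 d. Each of the 3 members kept in every list overlapped with another day in at least 1 line.

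**Figure D5:**
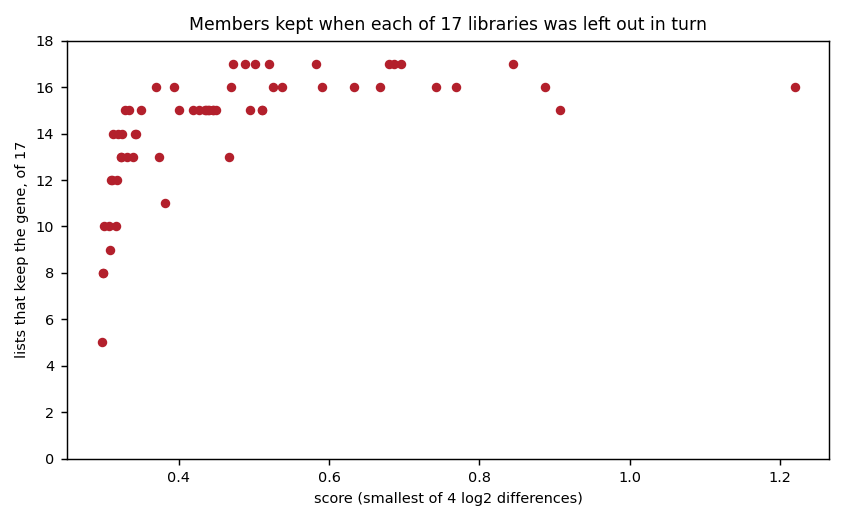
Each point is a member, with its score (x axis, the smallest of the 4 log2 differences) and the number of the 17 lists, each with 1 library left out, that still held it (y axis). Members with scores near 0.30 were kept in as few as 5 lists, and the gene with the highest score, 1.22, in 16.

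The highest group mean, by which genes entered the choice, had a median of 56.8 normalized counts over the members and 61.3 over the 7152 genes, and it was under 50 in 27 members, 45%, against 42.6%. At the other days the members were lower than the genes they were drawn from, as the choice requires of days below a peak. The median group mean was 19.0 against 40.7 in Karl at 7 d, 25.1 against 41.7 in Karl at 21 d, 21.5 against 40.2 in 10_11 at 7 d and 23.0 against 43.3 in 10_11 at 21 d. By identifier, 7 members were on 1H, 6 on 2H, 3 on 3H, 6 on 4H, 14 on 5H, 10 on 6H and 10 on 7H, and 4 were unplaced. Chromosome 5H held 23.3% of the members and 16.1% of all genes, 6H 16.7% and 11.5%, and 3H 5% and 14.7%. These shares are a description with no test, and apart from the pairs on 6H and 7H no members had identifiers within 100 serial numbers of each other.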

How the data were processed

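MARS-seq libraries of barley flag leaves, 3 for each of 2 lines and 3 days, were grouped by the sample titles. The authors deposited 1 table of 13626 genes with raw counts and, as a signal, normalized counts, per the file headers. In every library the normalized counts equal the counts divided by 1 constant, called the authors' size factor here. A further 18 columns of regularized values were not used. The submitters' processing notes name bcl2fastq, cutadapt, STAR 2.4.2a, HTSeq and DESeq2. Genome build, annotation and use of molecular identifiers were not given in the sources used here, and intervals cover counting error only.

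The members and lists were chosen with earlier results of these data known. The members follow the score described with the results. Deposited counts of 17 libraries were fitted with edgeR 4.0.16 in R 4.3.3 (filterByExpr by group, TMM, 1 mean for each line and day, two-sided quasi-likelihood test, Benjamini-Hochberg adjustment over 10382 genes, threshold 0.05). The standard error is the log2 fold change over the square root of F. Levels are printed as deposited normalized counts, not CPM as planned, since the choice of members used them. The script was tested on simulated data. Lists by gene function need names and were not applied.

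Named genes are the 6 highest scores, the 3 highest levels at 14 d in CPM, the 2 scores on either side of the limit, members called between lines (3 for each day and direction) or between 7 d and 21 d (2 for each line and direction), members called for peak size, and members within 100 serial numbers of another. Others are said to be named after their values were seen. Tried besides were all 18 libraries, DESeq2 1.42.0, scaling by its size factors, no filter on low counts, a replicate block, thinned counts, the compared groups alone, each library left out, and other forms of the choice.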

Additional observations from a re-analysis of the deposited data

How the results depend on the processing

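Of the 60 members, 28 were kept with counts thinned to a common total, 32 with group medians and 36 with scaling to library totals alone, the last chosen after the data were seen. A minimum group mean of 50 kept 33. That number was fixed in advance, since the highest group mean was under 50 in 27 members and the score does not depend on the minimum. Pseudocounts of 1 and 20, a minimum mean of 10, CPM and the left-out library in the choice kept 41 to 55. Leaving out 1 library kept 42 to 56. A margin of 1.5 times cut the members in which the left-out library exceeded all others from 35 to 9.

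Members called between the lines at 14 d, 4 in the fit reported, were 0 with all 18 libraries, 0 with thinned counts, 8 with the compared groups alone, and 0 to 7 leaving out 1 library. Over all genes 311 were called in the fit reported, 5, 86 and 621 in those settings. At 21 d, 1 was called in the fit reported (1.42% of all genes). DESeq2 called 3 (3.13%), thinned counts 0 (0.51%), the compared groups alone 0 (0.433%), and leaving out 1 library 0 to 3. Between 21 d and 7 d, the fit reported called 20.8% of all genes in Karl and 28.4% in 10_11. In Karl 3 members were called and 1 to 5 leaving out 1 library, with 14 (31.2% of all genes) by library totals alone. In 10_11, 4 were called and 1 to 5 leaving out 1 library. Library totals alone put the median of all genes for 14 d over 7 d at 0.44 in Karl and 0.33 in 10_11, against 0.02 in both with TMM. The calls at 7 d stayed at 0 under every alternative, and those for peak size under every one but the compared groups alone, not run there since that difference uses all 6 groups. No called difference of a named gene reversed. The score, which chose the members, fell to 0 or below without some library in 16 members, to -0.94 in HORVU7Hr1G118070, -0.60 in HORVU7Hr1G118000, -0.51 in HORVU6Hr1G033600 and -0.26 in HORVU1Hr1G011990. The causes of these changes were not tested.

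Between libraries of the 2 lines with the same replicate label, correlations of deviations were 0.11, -0.08 and -0.11 at 7 d. They were 0.23 and 0.23 at 14 d, and -0.15, 0.30 and 0.32 at 21 d. The values of 14 d are not separate, since 2 libraries of 10_11 deviate from their mean by equal amounts. Libraries with unlike labels were not compared, so whether the labels pair the samples was not settled. With a replicate block, 2 members were called between the lines at 14 d, 1 at 21 d, 0 for 21 d over 7 d in Karl and 1 in 10_11, with 203, 106, 685 and 1441 of 10382 genes. The replicates are numbered 1 to 3 at 7 d and A to C later. For 21 d over 7 d this block therefore compares levels fitted for replicates A and 1, not the means of the days. This limit covers the counts for 21 d over 7 d and the p-values that follow. With the block the adjusted p (edgeR) was 0.102 for HORVU3Hr1G021150 in Karl (log2 0.93) and 0.277 for HORVU5Hr1G000820 in 10_11 (0.79).

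Depth limits the days unequally. With a median of 5 to 12 counts per member at 7 d, small differences there were not detectable, and 2 libraries for 10_11 at 14 d limit the precision of its peak.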
